A study of Homo sapiens with 12 samples.

Results

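AHNAK, a giant scaffold protein of the cell cortex, was followed with 6 genes chosen to stand beside it in RNA-Seq of FaDu cells with and without STING. The 6 are AHNAK2, its paralog, the cytolinkers PLEC, DST and MACF1, and the partners ANXA2 and S100A10. The 7 genes are 7 of the 58288 listed and of the 15973 tested. AHNAK was selected on its own measured levels, which fell with radiation mainly in cells that have STING, and the other 6 were taken for comparison with it.

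FaDu is an established human head and neck squamous cell carcinoma (HNSCC) line, and STING, encoded by the gene listed as TMEM173, is an adaptor of the cytosolic DNA sensing pathway. STING WT cells (labelled WT) carried Cas9 and a non-targeting guide RNA, and STING KO cells (labelled STING-/-) carried Cas9 and a guide RNA against STING. Both were introduced by lentivirus with antibiotic selection. Each was either unirradiated (0Gy) or given 4 daily fractions of 2 Gy (RT), with 3 libraries in each of the 4 groups. The columns of the deposited table are headed by line names (NT2 and A63) that the sample labels do not use. NT2 is the non-targeting control by the study's methods, and A63 was taken as STING KO as the other of the 2 lines. Whether the 3 libraries of a group came from separate cultures is not given in the sources used here, so p-values measure the spread between these libraries, which may be technical. The time from the last fraction to RNA collection is also not given in those sources.

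AHNAK is a very large protein made mostly of short repeated units. Its C-terminal end binds the annexin A2 and S100A10 complex, through which it is held at the inner face of the plasma membrane, close to cortical actin and calcium channels. Annexin A2, encoded by ANXA2, binds phospholipids in a calcium-dependent way, and S100A10 (p11) is its light chain. An S100A10 dimer joins 2 annexin A2 molecules into a tetramer, and S100A10 that is not bound to annexin A2 is unstable as a protein. The plakins plectin (PLEC), dystonin (DST) and MACF1 are cytolinkers that tie intermediate filaments, microtubules and actin to each other and to junctions. In epithelium they anchor keratin filaments at hemidesmosomes and guide microtubules.

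AHNAK (ENSG00000124942.13) lies on the minus strand of chr11:62433542-62556235 (GRCh38, GENCODE release 29). Its longest annotated coding sequence encodes 5890 residues in 3 coding exons, and a single exon of 17328 nt, at chr11:62516747-62534074, holds 98.1% of it. Of 8 annotated transcripts the shortest is 568 nt and the longest 18787 nt, so the length used for a length-normalised value such as TPM (transcripts per 1000000) depends on which transcripts were counted. AHNAK2 (ENSG00000185567.6, chr14:104937244-104978357, minus strand) has the same architecture, with 5795 residues and 96.3% of the coding sequence in 1 exon. AHNAK and AHNAK2 overlap genes on the opposite strand (AP001363.1 and AP001363.2, and PLD4), and the strand setting of the authors' counting is not given in the sources used here.

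The 250 bases before the RefSeq start of AHNAK and of ANXA2 (GRCh38.p14) are printed because these 2 genes carry the results below. Both are read 5′ to 3′ on the minus strand, AHNAK from chr11:62545827-62546076 and ANXA2 from chr15:60397987-60398236. Capitals mark matches on either strand to the GC box GGGCGG, the AP-1 site TGANTCA or the TATA box TATAAA. Both windows lie inside the span that GENCODE gives the gene, whose outermost start is further upstream.
AHNAK: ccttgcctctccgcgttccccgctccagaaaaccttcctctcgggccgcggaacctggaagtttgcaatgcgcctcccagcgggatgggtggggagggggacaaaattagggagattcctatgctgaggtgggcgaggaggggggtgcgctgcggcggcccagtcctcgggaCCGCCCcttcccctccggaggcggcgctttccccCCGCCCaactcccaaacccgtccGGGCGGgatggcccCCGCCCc
ANXA2: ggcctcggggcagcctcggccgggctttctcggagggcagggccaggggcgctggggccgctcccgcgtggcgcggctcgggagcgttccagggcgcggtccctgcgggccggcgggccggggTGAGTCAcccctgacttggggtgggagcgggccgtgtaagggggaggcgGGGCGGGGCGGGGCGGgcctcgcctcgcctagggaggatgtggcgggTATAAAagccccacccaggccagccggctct

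The AHNAK window held 4 GC boxes and no TATA box or AP-1 site, with a GC content of 70.0% against a median of 58.0% over all promoters. The ANXA2 window held 1 AP-1 site, 1 TATA box and 3 GC boxes that overlap by their end bases, and its GC content was also above that median. Among 35116 promoter windows of that length, 42.6% held a GC box, 10.7% a TATA box and 6.57% an AP-1 site. A gamma-activated site (TTCNNNGAA, in 6.57% of the windows) was searched for on both strands and not matched in the windows of the 6 genes found in the table, which did not include PLEC. A match describes letters only.

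The plakin genes are built otherwise. PLEC (chr8:143915147-143976734) encodes up to 4684 residues in 32 coding exons, DST (chr6:56457987-56954628) up to 7461 in 98, and MACF1 (chr1:39081316-39487177) up to 7592 in 101. The partners are small proteins, with 357 residues for ANXA2 (chr15:60347134-60402883) and 97 for S100A10 (chr1:151982915-151994390).

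The targeted gene was lower in every library labelled KO. TMEM173 was listed at 21.7, 23.5 and 21.1 TPM in unirradiated WT libraries and at 26.1, 21.4 and 21.7 TPM in irradiated WT libraries. In KO it was listed at 5.18, 5.29 and 6.96 TPM without and at 6.35, 7.41 and 7.08 TPM with radiation. TPM sums to 1000000 in each library and keeps no depth, so no counting error can be given. The mitochondrially encoded genes held 9.30% to 10.9% of TPM in unirradiated and 10.2% to 11.2% in irradiated WT libraries. In KO their share was higher after radiation without overlap, at 10.8% to 11.9% against 8.90% to 10.3%. The 8 squamous epithelial markers together were lower after radiation without overlap in both lines, at 7993 to 8516 against 8619 to 8648 TPM in WT and 7310 to 8312 against 8372 to 10102 TPM in KO. Of 7 fibroblast markers only COL1A1 passed 1 TPM in all 12 libraries, and LUM was listed at 0 in all. Of 3 endothelial markers PECAM1 stayed under 1 TPM, and the sum of the 3 was higher after radiation, at 18.3 to 18.6 TPM against 11.5 to 13.9 in WT and 19.9 to 23.9 against at most 15.9 in KO. The part of these 3 shifts in the results was not tested. No sequencing batch is given in the labels.

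AHNAK mRNA fell with radiation to 0.48 of its mean TPM in STING WT cells, and to 0.88 in STING KO cells. In unirradiated WT libraries AHNAK was listed at 248, 295 and 280 TPM, and in irradiated WT libraries at 137, 127 and 130 TPM. The highest irradiated WT library lay well below the lowest unirradiated one. In unirradiated KO libraries it was listed at 298, 296 and 270 TPM, and in irradiated KO libraries at 251, 257 and 253 TPM. These groups did not overlap either, but lay closer together. In bulk RNA fewer cells that express a gene and less of its RNA per cell cannot be told apart.

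On the log2(TPM + 1) scale the radiation change of AHNAK was -1.05 (SE 0.065, n = 3 per group) in WT and -0.18 (SE 0.065) in KO. The KO radiation change minus the WT radiation change was 0.87 (SE 0.092). These values, with the levels above, are what chose AHNAK, and no test is attached to them. In WT the change stood at rank 42 from the most negative of 15973 genes, and in KO at rank 2386. The median of all genes tested was 0.017 in WT and 0.019 in KO.

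By group mean, AHNAK ran from 288 TPM in unirradiated KO to 274 in unirradiated WT, 254 in irradiated KO and 132 in irradiated WT. Unirradiated KO and unirradiated WT overlapped, with a log2 difference, KO minus WT, of 0.072 (SE 0.065). Unirradiated WT and irradiated KO also overlapped. Irradiated WT stood apart from all 3 other groups, and among irradiated libraries KO was higher by 0.94 (SE 0.065) on the log2 scale, with 1.93 times the WT mean TPM. Leaving out any 1 library moved the WT radiation change no further than -1.12 to -0.995.

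**Figure D1:**
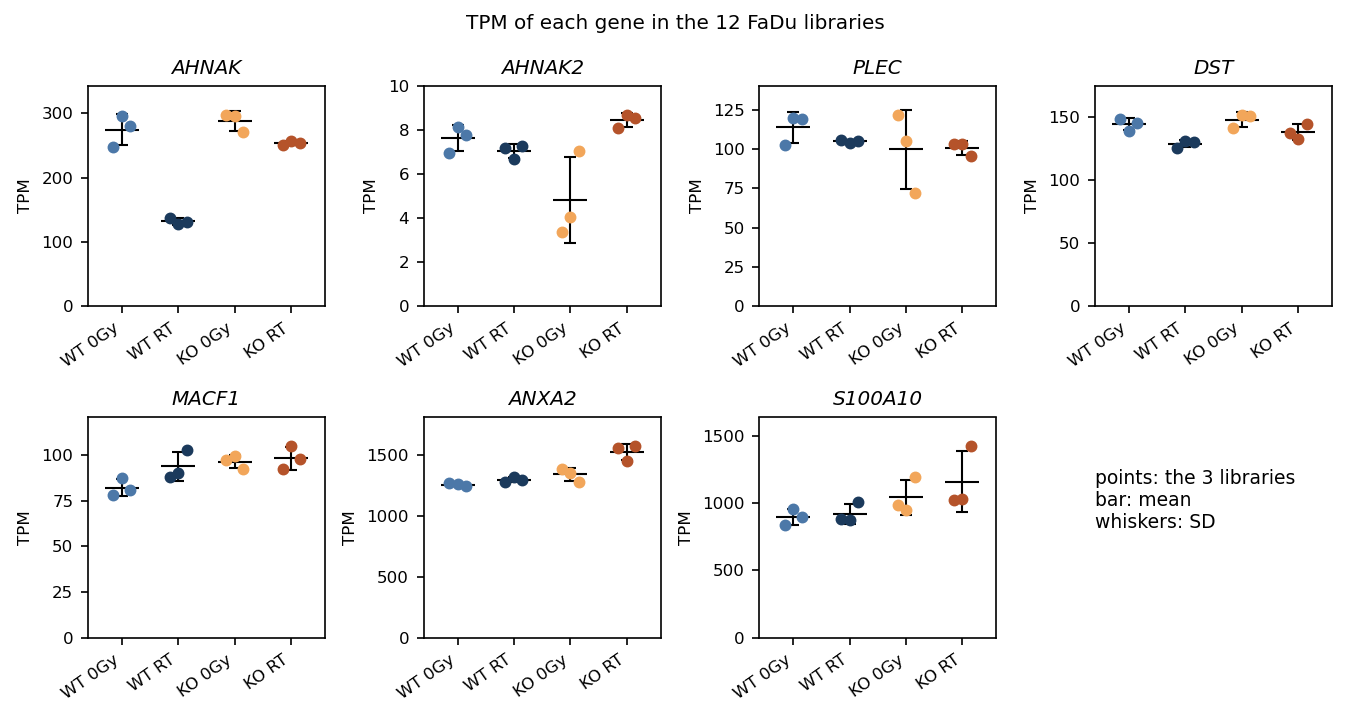
TPM (vertical axis, from 0) of AHNAK, AHNAK2, PLEC, DST, MACF1, ANXA2 and S100A10 in the 4 groups. Points are the 3 libraries of a group, the bar is their mean and the whiskers are the SD. The 3 irradiated WT libraries of AHNAK sit at 127 to 137 TPM, below its other 9 libraries, and 1 unirradiated KO library stands away from the other 2 for AHNAK2 and PLEC.

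AHNAK2, the paralog that also has most of its coding sequence in 1 exon, was far less abundant and showed another pattern. It was listed at 6.98, 8.14 and 7.78 TPM in unirradiated WT and at 7.21, 6.71 and 7.28 TPM in irradiated WT, and these overlapped. In unirradiated KO it was listed at 3.38, 4.03 and 7.04 TPM and in irradiated KO at 8.10, 8.70 and 8.57 TPM. The third unirradiated KO library lay near the WT level, and the other 2 were below every other library.

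In KO cells AHNAK2 rose with radiation by 0.75 (SE 0.18) on the log2 scale, with an adjusted p of 0.0489 (limma), in the line where the mitochondrial share of TPM was also higher after radiation in each library. The call lay just under the threshold of 0.05 and was lost in 18 of 20 alternative settings. In WT cells its change was -0.096 (SE 0.18, limma adjusted p = 0.84). The difference between the 2 radiation changes was 0.85 (SE 0.25), with a limma adjusted p of 0.67. Without the third unirradiated KO library that difference was 1.11 (adjusted p = 0.028, limma), so 1 library decided the call. In unirradiated cells the KO minus WT difference of AHNAK2 was -0.62 (SE 0.18, limma adjusted p = 0.14), and -0.88 (limma adjusted p = 0.0017) without that library. The third unirradiated KO library differed from the mean of its group's other 2 by 0.78 on the log2 scale for AHNAK2, at the 98.7th percentile of all genes in that library.

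PLEC, which encodes plectin, was not called in any comparison. It was listed at 103, 120 and 119 TPM in unirradiated WT, and at 106, 104 and 105 TPM in irradiated WT. The unirradiated KO values were 122, 105 and 72.3 TPM, and the irradiated KO values 103, 103 and 95.9 TPM. The third unirradiated KO library was the lowest of the 12, at the 2.47th percentile of all genes in its difference from the other 2, in the opposite direction to AHNAK2 in the same library. The radiation change of PLEC was -0.11 (SE 0.15, adjusted p = 0.76, limma) in WT. In KO it was 0.045 (SE 0.15, adjusted p = 0.92, limma), and -0.17 without the third unirradiated library.

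DST, which encodes dystonin, was also not called in any comparison. It was listed at 148, 139 and 145 TPM in unirradiated WT and at 125, 130 and 130 TPM in irradiated WT, with no overlap. In KO the libraries overlapped, at 141, 152 and 150 TPM without and 137, 132 and 144 TPM with radiation. The radiation change was -0.16 (SE 0.048) in WT with an adjusted p of 0.10 (limma), and -0.10 (SE 0.048) in KO with an adjusted p of 0.31 (limma). Neither passed the threshold.

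MACF1, the spectraplakin that links actin to microtubules, was listed higher after radiation in WT, without passing the test. It was listed at 78.3, 87.4 and 80.9 TPM in unirradiated WT and at 88.0, 90.3 and 103 TPM in irradiated WT, with no overlap. In KO it was listed at 97.2, 99.6 and 92.6 TPM without radiation and at 92.2, 105 and 98.0 TPM with it, and these overlapped. Its radiation change in WT was 0.19 (SE 0.072) with an adjusted p of 0.21 (limma). In unirradiated cells MACF1 was listed higher in each KO library than in each WT library, by 0.23 (SE 0.072) on the log2 scale, with an adjusted p of 0.17 (limma).

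ANXA2, which encodes the annexin that carries AHNAK at the membrane, was the most abundant of the 7 and was called higher in irradiated KO cells. It was listed at 1265, 1256 and 1240 TPM in unirradiated WT and at 1278, 1316 and 1292 TPM in irradiated WT. In KO it was listed at 1381, 1353 and 1278 TPM without and at 1556, 1450 and 1569 TPM with radiation. The 3 irradiated KO libraries were the highest of the 12.

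Among irradiated libraries ANXA2 was higher in KO than in WT by 0.23 (SE 0.041) on the log2 scale, with an adjusted p of 0.012 (limma). This is a ratio of mean TPM of 1.18. The call was lost in 3 of 20 alternative settings, which were quantile normalization (adjusted p = 0.071), only the 6 libraries compared (adjusted p = 0.073) and leaving out the first irradiated WT library (adjusted p = 0.054). With radiation in KO cells ANXA2 rose by 0.19 (SE 0.041, limma adjusted p = 0.033), in the same libraries with the higher mitochondrial share, a call lost in 14 of 20 settings, including without the third unirradiated KO library (adjusted p = 0.11). In WT cells its radiation change was 0.047 (SE 0.041, limma adjusted p = 0.62), and the difference between the 2 changes was 0.14 (SE 0.058, limma adjusted p = 0.74). The processed pseudogene ANXA2P2, which could share reads with ANXA2, was listed at 1.76 to 3.49 TPM.

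S100A10, the light chain of annexin A2, was listed at 836, 959 and 897 TPM in unirradiated WT and at 878, 875 and 1006 TPM in irradiated WT. In KO it was listed at 984, 951 and 1191 TPM without and at 1021, 1033 and 1423 TPM with radiation. In each KO group the third library was the highest. After radiation every KO library was above every WT library, by 0.32 (SE 0.13) on the log2 scale, with an adjusted p of 0.23 (limma). Its radiation changes were 0.035 (SE 0.13, adjusted p = 0.93, limma) in WT and 0.14 (SE 0.13, adjusted p = 0.63, limma) in KO.

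The ratio of S100A10 to ANXA2 mRNA, in TPM, overlapped between groups. Its mean was 0.716 ± 0.052 (SD, n = 3) in unirradiated WT, 0.710 ± 0.060 in irradiated WT, 0.782 ± 0.13 in unirradiated KO and 0.759 ± 0.13 in irradiated KO. The ratio of ANXA2 to AHNAK mRNA was 4.59 ± 0.45 in unirradiated WT and 9.84 ± 0.51 in irradiated WT, against 4.64 ± 0.084 and 6.01 ± 0.32 in the KO groups. This ratio holds AHNAK, so its change in WT follows from the values that chose AHNAK.

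**Figure D2:**
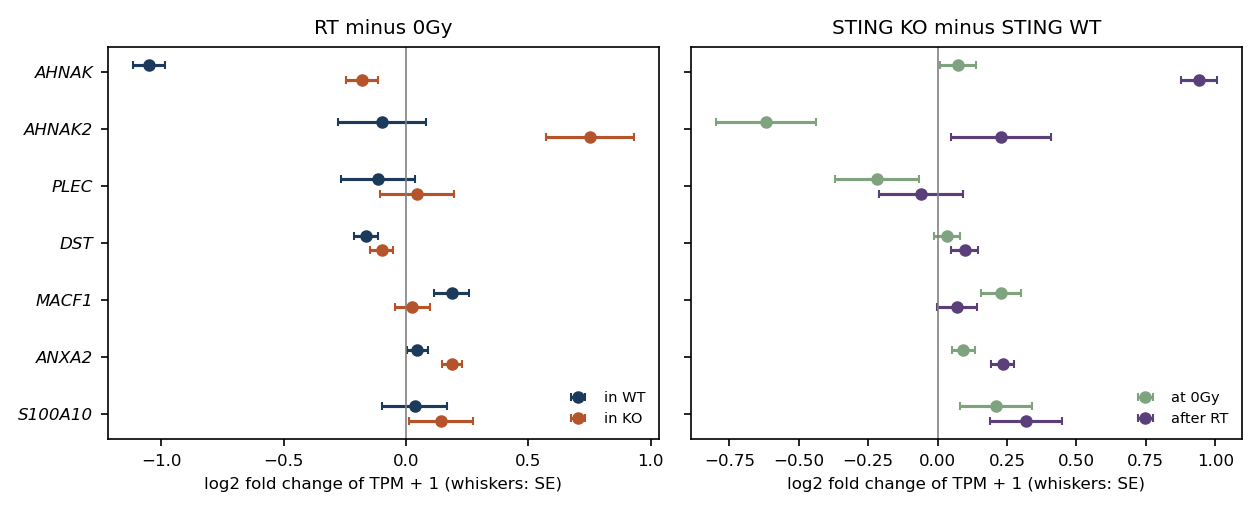
Log2 fold change of TPM + 1 (horizontal axis) of the 7 genes, with whiskers of 1 SE. The left panel gives RT minus 0Gy in WT and in KO, and the right panel STING KO minus STING WT at 0Gy and after RT. AHNAK stands at -1.05 for radiation in WT and at 0.94 for KO against WT after radiation, and the other 6 genes lie within 0.32 of 0 apart from AHNAK2, at 0.75 for radiation in KO and -0.62 for KO against WT at 0Gy.

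Counted over the 6 genes other than AHNAK, calls at an adjusted p under 0.05 (limma) were few. With radiation in WT none of the 6 was called, against 3.74% of all genes tested. An unadjusted p under 0.05 was found for DST and MACF1, against 18.2% of all genes, and DST, MACF1 and ANXA2 did not overlap, against 24.8%. With radiation in KO AHNAK2 and ANXA2 were called, 2 of 6 against 3.69%, and the same 2 did not overlap, against 24.3%.

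For the difference between the 2 radiation changes none of the 6 was called by limma, against 0.0188%, and AHNAK2 and ANXA2 had an unadjusted p under 0.05, against 6.61%. Between KO and WT without radiation none was called by limma, against 1.73%, while AHNAK2, MACF1 and ANXA2 had an unadjusted p under 0.05, against 14.3%, and MACF1 and ANXA2 did not overlap, against 20.6%. After radiation ANXA2 alone was called, 1 of 6 against 3.59%. The libraries of 5 of the 6 did not overlap between irradiated KO and irradiated WT, which held for 24.1% of all genes. Of those 5, AHNAK2, DST, ANXA2 and S100A10 were listed higher in KO and PLEC lower. The comparisons of KO with WT share their libraries with the comparisons of radiation.

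Genes that encode other giant proteins were set beside AHNAK. Of the 50 tested genes with a coding sequence of at least 4000 residues, AHNAK had the most negative radiation change in WT, and was followed by FAT2, an atypical cadherin, at -0.60. AHNAK was chosen for that change, so its place among the 50 follows from the choice. In KO FAT2 was at -0.59, where AHNAK stood at -0.18. The 45 giant genes that are not among the 7 had a median radiation change of 0.040 in WT and 0.058 in KO, against 0.024 and 0.016 for the 6830 genes of under 500 residues. With median-of-ratios scaling the medians of the shorter genes were 0.0056 in WT and -0.0034 in KO. Under the alternative settings the median of the giant genes ran from 0.029 to 0.035 in WT and from 0.035 to 0.048 in KO. The neighbours of AHNAK on chromosome 11 were examined in the same way. None of the 10 nearest tested genes, 5 on each side from BEST1 to EML3, was called in any of the 5 comparisons, with radiation changes in WT from -0.77 to 0.19. The value of -0.77 was that of AP002990.1 and had an SE of 1.16, and the next most negative was BEST1 at -0.26. An unadjusted p under 0.05 (limma) was found for none with radiation in WT or for the difference, and for 1 of 10 in each other comparison, FTH1 with radiation in KO, EEF1G for KO against WT without radiation and BEST1 after it, against 17.9% of all genes in the last.

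**Figure D3:**
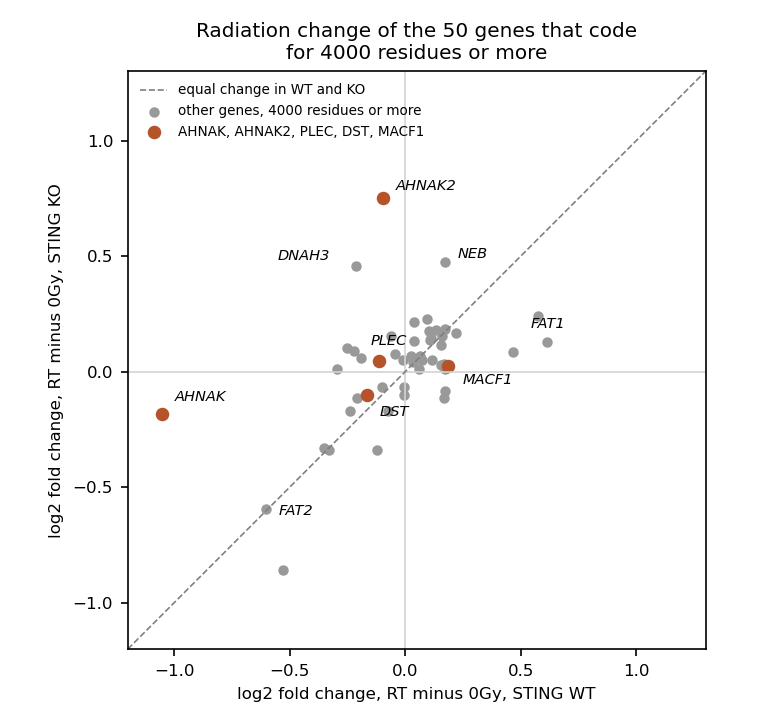
Log2 fold change of TPM + 1, RT minus 0Gy, in STING WT (horizontal axis) and in STING KO (vertical axis) for the 50 tested genes that code for at least 4000 residues. Each point is a gene and the dashed line marks equal change. AHNAK lies far left of the line at -1.05 and -0.18, AHNAK2 lies above it, and FAT2 is negative in both lines.

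The plakin relatives held no call. Of 7 plakin genes, which add the desmosomal proteins DSP, PPL and EVPL and the repeat protein EPPK1 to the 3 above, none was called in any comparison by limma, and 3 (DSP, DST and MACF1) had an unadjusted p under 0.05 with radiation in WT, against 18.2% of all genes, and 1 (EPPK1) in KO, against 18.1%. Their median radiation change was -0.10 in WT and -0.046 in KO, or -0.15 in KO without the third unirradiated KO library. Of 14 genes that link actin to the membrane, none was called by limma either, with medians of -0.0098 and -0.039, and 1 of 14 had an unadjusted p under 0.05 with radiation in WT and 4 of 14 in KO, against the same 18.2% and 18.1%. In a list of 33 tested genes for other large proteins 2 fell with radiation in WT, the kinetochore proteins CENPE (-0.49, SE 0.059, adjusted p = 0.0017, limma) and CENPF (-0.31, SE 0.047, adjusted p = 0.0069, limma). Both also fell in KO, with changes of -0.31 and -0.22 (limma adjusted p = 0.021 and 0.033), calls lost in 4 of 20 settings for CENPE and 13 of 20 for CENPF, and for both without any 1 of the 3 unirradiated KO libraries. Genes called lower with radiation made up 1.5% of all genes tested in WT and 1.7% in KO. The median radiation change of the 33 was 0.035 in WT. In KO it was 0.049, and ran from -0.0089 to 0.064 over the alternative settings. AKAP9, which anchors protein kinase A at the Golgi and centrosome, was higher in KO than in WT after radiation by 0.41 (SE 0.074, adjusted p = 0.014, limma), a call lost in 4 of 20 settings (adjusted p up to 0.065), which were only the 6 libraries compared and leaving out the second irradiated KO or the first or the third irradiated WT library. Genes called higher in that comparison made up 0.927% of all genes tested.

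Among 12 tested annexins ANXA2 was the only member called higher, with radiation in KO and against WT after radiation. With radiation in KO 1 of the 12 was called higher and 1 lower (ANXA8L1), against 3.69% of all genes tested called in either direction. After radiation 1 of the 12 was called higher in KO than in WT, against 0.927% of all genes tested. ANXA1 was listed at 793 to 913 TPM by group mean and was not called in any comparison. ANXA8L1 fell with radiation in KO, with a change of -0.31 (SE 0.074, adjusted p = 0.049, limma), from 80.8 ± 2.0 to 64.9 ± 1.5 TPM, but it is a near-identical copy of ANXA8 and reads could be split between them. The call was lost in 13 of 20 settings. The annexin list had a median radiation change of -0.054 in WT and -0.055 in KO. These medians moved to -0.15 and -0.12 with genes of a mean of at least 5 TPM, to -0.11 in WT without the first unirradiated WT library, and in KO to -0.11 without the third unirradiated library and -0.0067 without the first irradiated library.

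Of the 4 annexin-binding S100 genes, all were listed higher in KO than in WT, and S100A11 was called. S100A11, which binds annexin A1, was higher in KO, at 939 ± 48 against 789 ± 19 TPM without radiation (log2 difference 0.25, SE 0.045, adjusted p = 0.017, limma), and at 866 ± 14 against 744 ± 27 TPM with it (0.22, SE 0.045, adjusted p = 0.024, limma). The first of these calls was lost in 8 of 20 settings and the second in 10. S100A11 was 1 of 4 called in each comparison. The medians of the list, KO minus WT, were 0.23 without and 0.20 with radiation, beside -0.021 and -0.017 over all genes. S100A10 lay at 0.21 and 0.32 and did not pass. Of all genes tested 0.463% were called higher in KO without radiation.

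Of 16 membrane repair and caveola genes, CAV1, CAV2 and CAPN1 fell with radiation in WT and the same 3 in KO, and none was called higher. The median of the 16 was -0.058 in WT and -0.0060 in KO. CAV1, the main coat protein of caveolae, fell by 0.28 (SE 0.033, adjusted p = 0.0015, limma) in WT and fell by 0.27 (SE 0.033, adjusted p = 0.0019, limma) in KO. CAV2, its partner, fell by 0.42 in each (SE 0.062, limma adjusted p = 0.0061 and 0.0054). CAPN1, the calcium-activated protease calpain 1, fell in each, with changes of -0.26 and -0.28 (SE 0.043, limma adjusted p = 0.011 and 0.0071). The difference between the KO and WT changes was 0.010 (SE 0.046) for CAV1, -0.0087 (SE 0.088) for CAV2 and -0.019 (SE 0.061) for CAPN1, where for AHNAK it was 0.87. The calls of CAV2 in WT and of CAPN1 in both lines were lost in 1 of 20 settings, only the 6 libraries compared. Of all genes tested 1.5% were called lower in WT and 1.7% in KO.

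Of 10 genes for surface cargo and regulators of the annexin A2 complex, 4 passed the filter on low values. PLG, which encodes plasminogen, was listed at 0 by group mean in every group. PLAT, the tissue plasminogen activator, was higher in KO in unirradiated cells, at 16.8 ± 0.85 against 11.9 ± 1.2 TPM, and in irradiated cells, at 19.1 ± 1.7 against 13.5 ± 1.5 TPM. Its log2 differences were 0.47 in each (SE 0.10, limma adjusted p = 0.048 and 0.031), and these calls were lost in 14 and 8 of 20 settings. The other 3 tested genes were listed lower in KO in both comparisons. The list medians, KO minus WT, were -0.13 without and -0.083 with radiation. They were 0.20 and 0.22 with genes of a mean of at least 5 TPM, but that filter left only PLAT and SRC, which differed in sign. Of all genes tested 0.463% were called higher in KO without radiation and 0.927% with it. SRC, the kinase that phosphorylates annexin A2, rose with radiation in KO by 0.17 (SE 0.040, adjusted p = 0.048, limma), and the call was lost in 17 of 20. It was 1 of 4 called there, against 3.69% of all genes tested.

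Genes with a profile like that of AHNAK were ranked by the root-mean-square (RMS) difference of centred log2 values over the 12 libraries. The closest 6 were WNT9A, MKL2, KRT19, SERPINB4, ST6GALNAC2 and UNC5B, with RMS differences of 0.217 to 0.242. A flat profile lies at 0.459, and 4331 of 15972 genes lay closer than that. WNT9A, a secreted Wnt ligand, was at 7.07 TPM in unirradiated WT, 4.26 in irradiated WT, 10.3 in unirradiated KO and 6.76 in irradiated KO. KRT19, a simple epithelial keratin, was at 1027, 717, 1396 and 1022 TPM in the same order. The log2 radiation changes in WT and KO were -0.62 and -0.55 for WNT9A, -0.52 and -0.45 for KRT19, and -0.62 and -0.59 for UNC5B, and all 3 had the higher group means in KO.

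MKL2, a coactivator of serum response factor, was at 45.0 ± 3.7 TPM in unirradiated WT and 27.9 ± 2.3 in irradiated WT, against 49.0 ± 2.2 and 41.4 ± 7.7 in KO. ST6GALNAC2, a sialyltransferase, was at 17.4 ± 1.8 and 9.03 ± 1.5 TPM in WT, with log2 radiation changes of -0.88 (SE 0.11) in WT and -0.34 (SE 0.11) in KO. SERPINB4 was listed at under 2.2 TPM in every library. Of the other 6 genes chosen with AHNAK, DST came closest at rank 1071 and AHNAK2 furthest at rank 13684. These ranks describe 12 libraries and rest on the same values that chose AHNAK.

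**Figure D4:**
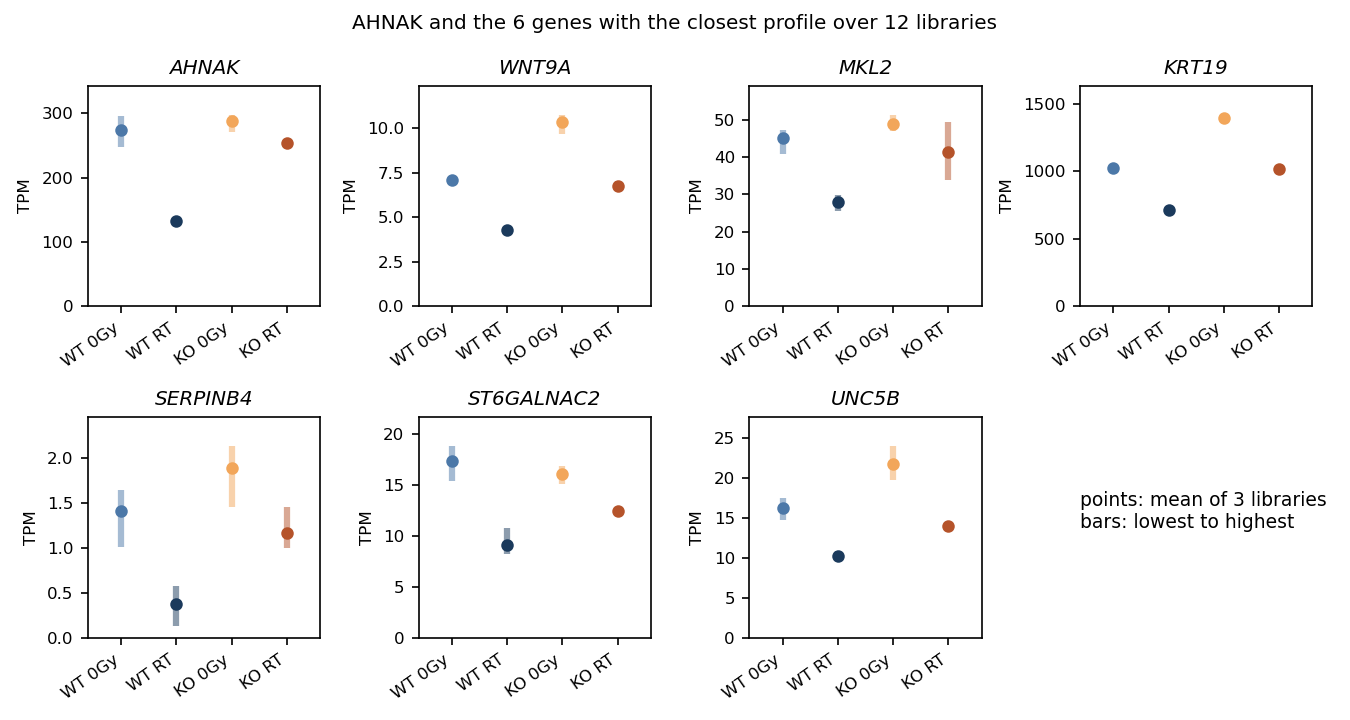
TPM (vertical axis, from 0) of AHNAK and of the 6 genes with the smallest RMS difference from it, in the 4 groups. Points are the means of 3 libraries and bars run from the lowest to the highest. All 7 are lowest in irradiated WT, and the irradiated KO mean lies below the unirradiated KO mean for each.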

How the data were processed

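The authors deposited 1 table of TPM per gene and library (58288 genes), from oligo-dT selected RNA read from both ends. The submitters' processing notes name HISAT2, StringTie, DESeq2 and hg38, without versions, and the annotation is not given in the sources used here. Columns headed NT2 (non-targeting guide RNA 2) were taken as STING WT, since the methods name that guide for the control cells. Columns headed A63, the only other line in the table, were taken as STING KO, although the labels do not use that name. Their numbers are not tied to sample titles.

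Genes were kept where 3 or more of the 12 libraries reached 1 TPM, which left 15973, and their values were transformed to log2(TPM + 1). The 4 group means were fitted with limma 3.58.1 in R 4.3.3 (eBayes with trend, 8 residual degrees of freedom), and p-values were adjusted over all tested genes (Benjamini-Hochberg), with calls made under 0.05. TPM is not a count, so no count model was used. The code was tested on simulated data. Coding lengths are those of the longest coding sequence in GENCODE release 29, which held 15929 of the tested identifiers, and promoters are from RefSeq. Gene names in the text are the 7 genes, the called members of each list (at most 4 in each direction), the 6 genes most like AHNAK, and TMEM173. FAT2, the uncalled plakins, BEST1, FTH1, EEF1G, EML3, ANXA1, PLG, COL1A1 and LUM were named after their values were seen, and 1 gene is not reported here. The members and lists were chosen with earlier results of these data known.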

Additional observations from a re-analysis of the deposited data

Results flagged for a closer look

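The radiation changes of AHNAK2 pointed in opposite directions in the 2 lines. Every irradiated KO library lay above the unirradiated KO mean, and every irradiated WT library lay below the unirradiated WT mean. The KO change minus the WT change was 0.85 on the log2 scale. By limma it did not pass the threshold (adjusted p = 0.67), and it rests on a WT change of -0.096 with an SE of 0.18. The value was 1.11 without the third unirradiated KO library and 0.67 at the lowest over all libraries left out in turn.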

How the results depend on the processing

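AHNAK kept its direction and moved by less than the spread between replicates under all 20 alternatives in 4 comparisons and the 19 run for the difference between the radiation changes. Its KO minus WT value without radiation was small, however, and with each library left out ran from 0.00094 to 0.13. The alternatives were other scalings (quantile, median of ratios), another pseudocount (0.1), a looser and a stricter filter (none, or a mean of 5 TPM), eBayes fitted without the trend, a block for the replicate number, fits of only the 6 libraries compared (not run for that difference), and leaving out each library. Whether the numbers in the column heads pair the samples is not given in the sources used here. Deviations of same-numbered libraries correlated at -0.060 to 0.064 across genes, which with 3 libraries a group cannot decide it. With the replicate number as a block, the total of genes called was 315 with radiation in WT, against 597 in the main fit. The totals were 359 against 590 in KO, 1 against 3 for the difference and 378 against 573 for KO against WT after radiation. With only the 6 libraries compared the totals were 166 and 195 for radiation in WT and KO. For KO against WT they were 103 without radiation (276 in the main fit) and 252 with it. For the difference, no filter gave 7 and eBayes without trend gave 1. With each library left out, the counts ran from 242 to 526 with radiation in WT, 268 to 553 in KO, 1 to 9 for the difference, 172 to 292 for KO against WT without radiation and 313 to 542 after it, lowest without the first irradiated WT library in the first and last of these. Some small values changed sign when a library was left out. S100A10 ran from -0.031 to 0.084 with radiation in WT (negative without the first unirradiated or the third irradiated WT library), and from -0.013 to 0.24 in KO and -0.048 to 0.21 for the difference (negative without the third irradiated KO library). PLEC ran from -0.17 to 0.20 in KO and from -0.055 to 0.32 for the difference (negative without the third unirradiated KO library). MACF1 ran from -0.020 to 0.072 in KO (negative without the second irradiated or the third unirradiated KO library). The cause was not tested. Depth is unknown, so no value could be given a counting error.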
